A study of Mus musculus with 2 samples.

Results

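Slc38a5 and 7 further amino acid transporter genes (Slc38a4, Slc38a2, Slc7a2, Slc7a5, Slc7a8, Slc3a2 and Slc1a5) were followed through sorted islet cells of mice with and without conditional loss of Isl1. The 8 genes were picked by symbol among the 46983 genes of the count matrices, with their UMIs by library and by class already known. Their levels are therefore descriptions of 2 libraries and carry no test. The protein ISL1 is a LIM-homeodomain factor needed for endocrine cells of the islet to mature. The control library came from Neurod1 Cre/+; Isl1f/+ mice and the Isl1CKO library from Neurod1 Cre/+; Isl1f/f mice, so both groups carried the Neurod1-driven Cre and a tdTomato reporter, and controls may have lost Isl1 on 1 allele. Pups were 9 days old, 6 samples per genotype were pooled, and tdTomato-positive cells were sorted and captured in 1 droplet library per genotype by a 10x Chromium 3' kit.

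Amino acid transporters set which amino acids enter an endocrine cell. Glucagon-secreting alpha cells sit in a loop with the liver, in which glucagon promotes the breakdown of amino acids and amino acids in turn stimulate glucagon secretion and alpha cell growth. Slc38a5 encodes a sodium-coupled exchanger that carries glutamine, and in mice it is known for its induction in alpha cells when glucagon signalling is interrupted. Slc38a4 and Slc38a2 encode sodium-coupled neutral amino acid transporters of system A, Slc38a2 being a known target of amino acid shortage. Slc7a2 encodes a cationic transporter that brings in arginine and lysine. Slc7a5 and Slc7a8 encode light chains that exchange large neutral amino acids and reach the plasma membrane with the heavy chain encoded by Slc3a2. Slc1a5 encodes an exchanger of small neutral amino acids and glutamine that is known from growing cells.

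On GRCm38 the annotation places Slc38a5 (ENSMUSG00000031170) on chromosome X from 8271133 to 8280179 on the plus strand. Slc38a2 (ENSMUSG00000022462, chromosome 15, 96687392 to 96699730) and Slc38a4 (ENSMUSG00000022464, chromosome 15, 96994820 to 97055956) lie on the minus strand, 295090 bases apart with no protein-coding gene between them. Slc7a2 (ENSMUSG00000031596) lies on chromosome 8 from 40862396 to 40922308 on the plus strand, where its exons overlap those of the antisense gene Gm26584, so its count is less certain. Slc7a5 (ENSMUSG00000040010) is on the same chromosome from 121881150 to 121907694, minus strand. Slc7a8 (ENSMUSG00000022180) spans 54722209 to 54781946 on chromosome 14 and Slc3a2 (ENSMUSG00000010095) 8706882 to 8723369 on chromosome 19, both on the minus strand. Slc1a5 (ENSMUSG00000001918) spans 16781340 to 16798274 on chromosome 7, plus strand.

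The bases upstream of a RefSeq start are shown for Slc38a5, the gene that differed most, and for the neighbours Slc38a2 and Slc38a4. The neighbours lie side by side but had their highest levels in different classes of cells. The bases come from RefSeq promoter windows on GRCm38.p6, which matched 5 of the 8 genes with 7 windows of 250 bases. The RefSeq start used for Slc38a5 lies inside the gene, which the annotation begins at 8271133. Its printed bases follow 128 annotated exon bases in the window, so they are not upstream of the annotated gene. Only the stretch outside annotated exons is printed, 5′ to 3′ on the gene's strand, with CpG pairs in capitals.
Slc38a5, chrX:8271261-8271380, plus strand: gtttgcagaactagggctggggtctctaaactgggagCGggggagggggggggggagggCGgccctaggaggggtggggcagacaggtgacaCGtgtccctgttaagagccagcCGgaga
Slc38a2, chr15:96699731-96699978, minus strand: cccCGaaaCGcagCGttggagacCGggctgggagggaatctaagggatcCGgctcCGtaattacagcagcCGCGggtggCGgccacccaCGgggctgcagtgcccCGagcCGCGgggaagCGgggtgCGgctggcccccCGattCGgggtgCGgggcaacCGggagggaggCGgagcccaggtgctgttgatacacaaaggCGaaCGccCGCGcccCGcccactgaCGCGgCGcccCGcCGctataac
Slc38a4, chr15:97055957-97056206, minus strand: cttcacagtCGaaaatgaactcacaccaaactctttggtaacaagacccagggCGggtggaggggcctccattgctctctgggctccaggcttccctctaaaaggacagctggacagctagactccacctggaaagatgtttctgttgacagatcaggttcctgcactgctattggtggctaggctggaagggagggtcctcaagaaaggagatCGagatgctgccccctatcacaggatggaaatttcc
The Slc38a2 stretch held 30 CpG pairs in 248 bases. The Slc38a4 stretch, upstream of the first of its 3 windows, held 3 in 250 bases. The Slc38a5 stretch held 4 in 120 bases and its whole window 8, beside a median of 6 (quartiles 2 and 16) over 32851 windows of this length. Both strands of the 7 windows were searched for TGATGNAA (a composite element of ATF4 and C/EBP factors, present in 3.45% of all windows), CTAATGG or CTAATTG (Isl1, 3.46%), CAGATG (a Neurod1 E-box, 14.4%) and TGTTTAC (forkhead A factors, 3.17%). The only match was CAGATG in the Slc7a8 window, 27 bases before the start and inside an annotated exon. These letters were not in the other windows, which says nothing about binding elsewhere.

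The control library held 2504 cells with 72548173 UMIs (median 22638.5 per cell) and the Isl1CKO library 3020 cells with 78068592 UMIs (median 24906.5). The 2 libraries shared 4 cell barcodes. A UMI marks 1 captured transcript, tagged near its 3' end, so levels in CPM (UMIs of a gene scaled to a common total) do not grow with transcript length. Islet hormones took 53.3% of control UMIs and 12.2% of Isl1CKO UMIs, which moves every other gene in plain CPM. Isl1 itself stood at 253 CPM in control cells, and its level in the Isl1CKO library was 461 CPM. The labels do not say which part of Isl1 is floxed, so these 3' tags may lie outside it and check nothing. Cells were classed by what they expressed, and a class is called by its rule: Gcg-high (Gcg, the glucagon gene, at 10% or more of UMIs), insulin-high (Ins1 plus Ins2 at 20% or more), Sst-high and Ppy-high (10% or more each) in the control, and Ttr-high (Ttr at 5% or more), Chgb-high (2% or more) and Fev-positive (5 or more UMIs) in the Isl1CKO library. The Chgb rule, and after it the Fev rule, was applied only to Isl1CKO cells that met none of the Ttr, insulin and mesenchymal-marker rules. A Ttr-high cell may thus also meet the Fev rule, and Fev stood at 201 CPM in that class. Ttr encodes transthyretin, a thyroid hormone carrier that is abundant in alpha cells. Only 2 Isl1CKO cells met the Gcg rule, so the control Gcg-high cells (607) were set beside the Isl1CKO Ttr-high cells (1293), and 146 further Ttr-high cells with 5 or more UMIs of the cycling genes Mki67, Top2a, Cenpf and Hmmr were kept apart. All 8 genes of an alpha cell marker list, Slc7a2 among them, were detected in both classes, with summed levels of 316550 and 112074 CPM, but Gcg was 285372 against 2137 CPM, so the Ttr-high cells are given no cell type name here. Intervals are exact 95% intervals for counting error only.

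Slc38a5 was among the most abundant transcripts of the Isl1CKO library and was concentrated in its Ttr-high cells. Over all cells it stood at 204 CPM in the control (14776 UMIs, rank 314 of all genes) and 6997 CPM in the Isl1CKO library (546236 UMIs, rank 10). In control Gcg-high cells it was 899 CPM (883 to 916), which was 79.9% of the library's Slc38a5 UMIs. In Ttr-high cells it was 12324 CPM (12288 to 12359), or 472168 UMIs and 86.4% of that library's total, and ranked 5 among all genes. The cycling Ttr-high cells followed at 9859 CPM (9773 to 9946). The Ttr-high level was 13.7-fold that of Gcg-high cells in plain CPM. Because hormones fill much of a Gcg-high cell, the gap was smaller over UMIs outside the islet hormones, at 1315 against 12437 CPM.

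In plain CPM, which the hormone share of a class moves, the remaining classes fell in a wide order below these. Fev-positive Isl1CKO cells, which express a transcription factor of endocrine progenitors, held 2343 CPM (2289 to 2399), and Isl1CKO cells outside every rule 1687 CPM (1649 to 1725). Chgb-high Isl1CKO cells were at 368 CPM (357 to 379), control cells outside every rule at 276 CPM (264 to 289) and Isl1CKO insulin-high cells at 177 CPM (170 to 184). Ppy-high control cells, which make pancreatic polypeptide, were at 72.5 CPM (64.6 to 81.1) and did not differ beyond counting error from the 50.3 CPM (23.0 to 95.4) of 21 Isl1CKO cells with mesenchymal markers. At the bottom, somatostatin cells (Sst-high, 16.9 CPM, 13.5 to 20.8) and control insulin-high cells (13.5 CPM, 12.4 to 14.7) had overlapping intervals. The 38 control cells with mesenchymal markers gave 2 UMIs, 5.79 CPM (0.70 to 20.9), which overlapped both.

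**Figure D1:**
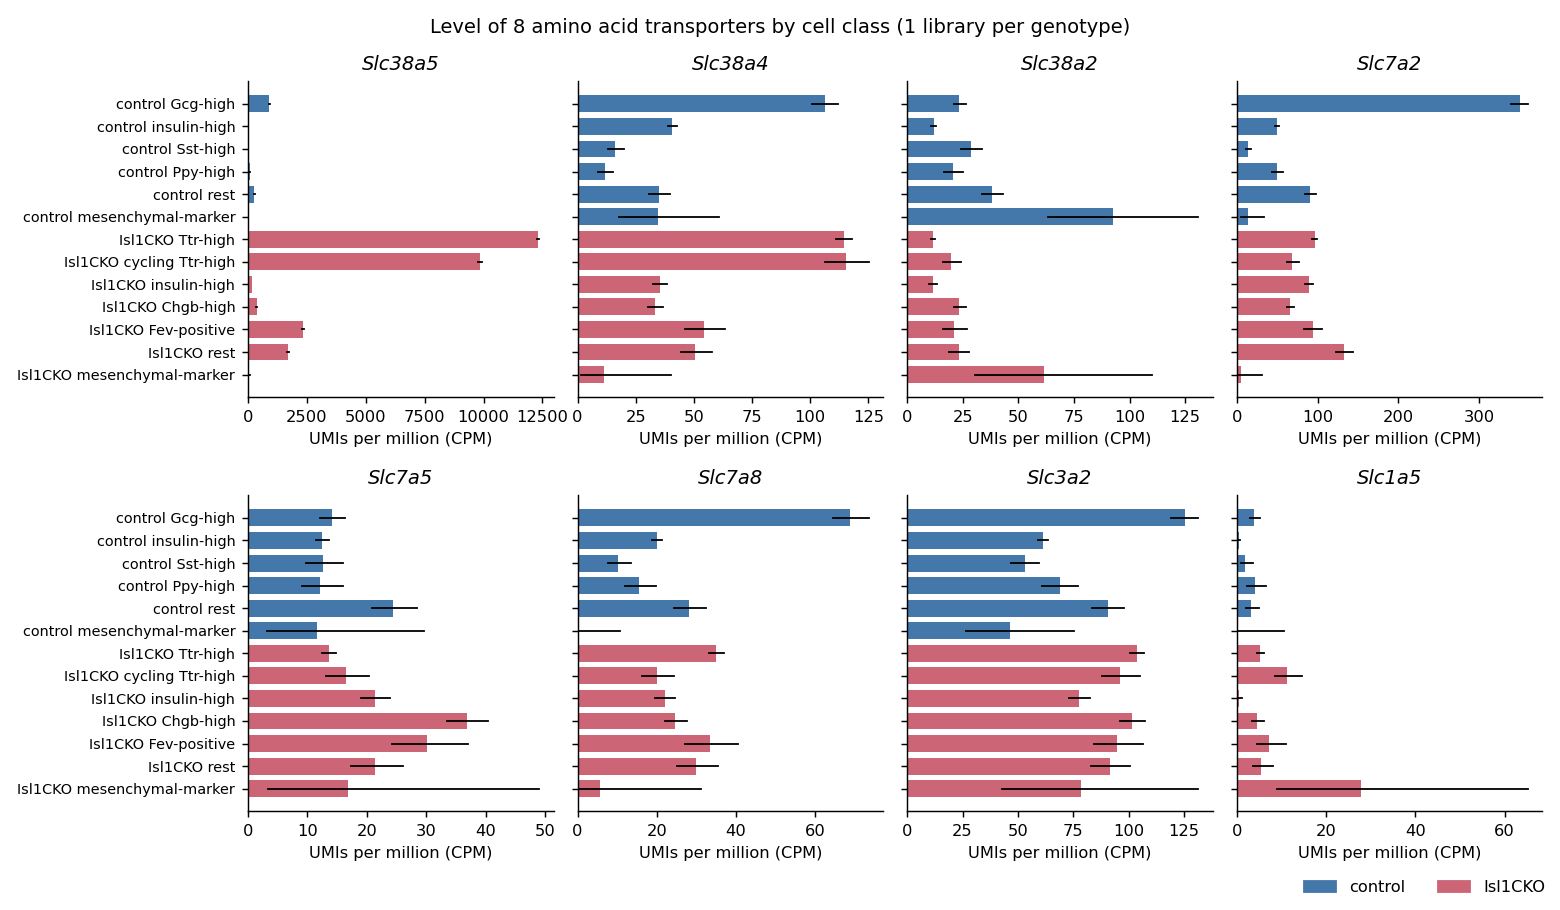
Level of each of the 8 transporters in CPM (horizontal axis, separate scale per gene) in 6 control classes (blue) and 7 Isl1CKO classes (red), with black lines for exact 95% Poisson intervals. Slc38a5 reaches 12324 CPM in Ttr-high cells and 899 CPM in control Gcg-high cells, while Slc7a2 is highest in control Gcg-high cells at 350 CPM.

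Single cells showed the same separation, with overlap at its edges. Among control Gcg-high cells the median cell held 318 CPM of Slc38a5 (quartiles 135 and 896, 95th percentile 3577), and 39 of 607 cells had no UMI. Among Ttr-high cells the median was 11642 CPM (quartiles 7595 and 16373), and 1 of 1293 cells had none. The level of the control 95th percentile was exceeded by 89.6% of Ttr-high cells, and the highest control Gcg-high cell, at 10779 CPM, by 705 Ttr-high cells (54.5%). In 775 Ttr-high cells (59.9%) at least 1 UMI in 100 was Slc38a5, which held for 1 control Gcg-high cell, and the highest cell had 2576 Slc38a5 UMIs. The Fev-positive cells were uneven, with a median of 130 CPM beside their class level of 2343, and 18 of 187 cells above the control 95th percentile. So were the Chgb-high cells, with a median of 76.5 CPM beside a class level of 368, a 95th percentile of 506 CPM and a highest cell at 15115 CPM. When each cell was thinned to 4000 UMIs, a Slc38a5 UMI was expected in 67.9% of Gcg-high cells and 99.4% of Ttr-high cells (93.6% and 99.9% before thinning, at median depths of 20765 and 28662 UMIs). The same share was 2.8% of control and 17.9% of Isl1CKO cells with mesenchymal markers, which should lack the gene (5.26% and 28.6% before thinning, the latter with an interval of 11.3% to 52.2%, at median depths of 8057 and 7797 UMIs). The thinned share was 16.5% in Isl1CKO insulin-high cells (70.6% before thinning, at 38544 UMIs) and 34.9% in Chgb-high cells. The comparison with background rests on 21 cells and depends on the measure for insulin-high cells, whose 177 CPM lay above the 50.3 CPM of those cells.

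**Figure D2:**
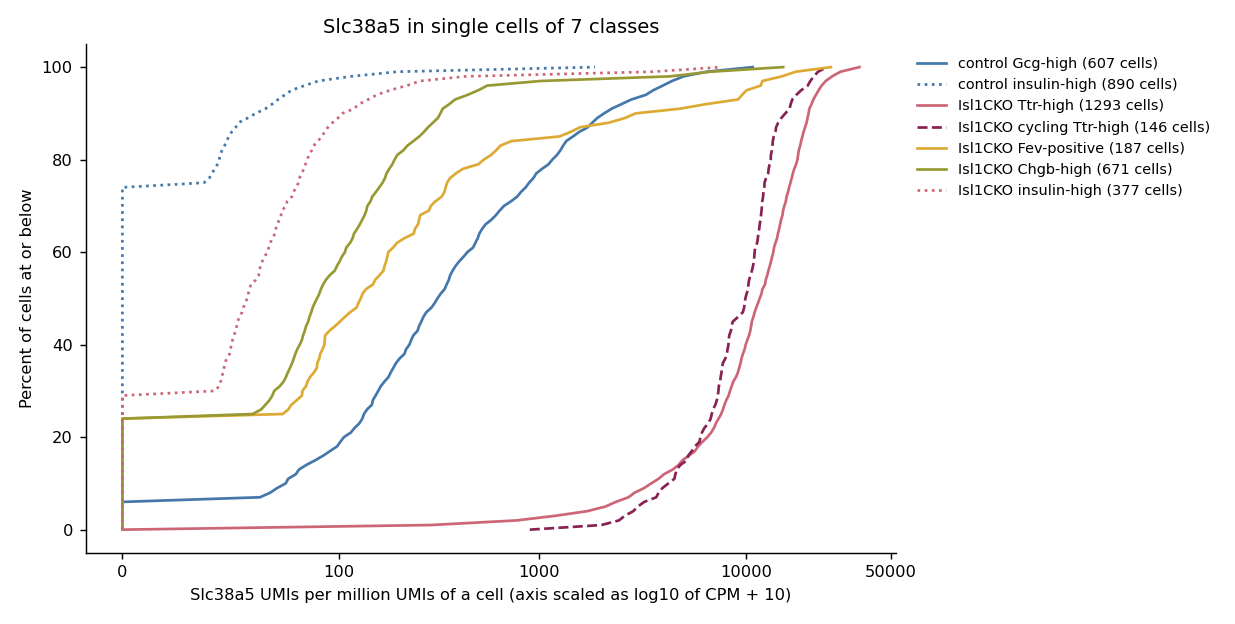
Percent of cells (vertical axis) at or below a given Slc38a5 level in CPM (horizontal axis, scaled as the log10 of CPM plus 10) in 7 classes, each line 1 class. The Ttr-high line crosses its median at 11642 CPM, far to the right of control Gcg-high cells at 318 CPM.

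Slc38a5 rose with Ttr inside the control Gcg-high class, and in the Isl1CKO library across classes. In control Gcg-high cells it was 267 CPM where Ttr was under 1% of a cell's UMIs (153 cells) and 707 CPM at 1% to 3% (239 cells). At 3% to 5% it was 1050 CPM (114 cells), and at 5% or more 1848 CPM (101 cells). In Isl1CKO cells that were not cycling it was 141 CPM below 1% Ttr (998 cells), 1590 CPM at 1% to 3% (89 cells) and 7972 CPM at 3% to 5% (64 cells). Above that it stayed at a plateau, with 12145 CPM at 5% to 8%, 12965 CPM at 8% to 12% and 11568 CPM from 12%. The bins below 5% hold Isl1CKO classes other than Ttr-high, so the climb runs across classes. Over 4 equal bins of Ttr-high cells by their Slc38a5, lowest first, Ttr was 117451, 108204, 101201 and 108945 CPM. Slc38a5 was higher in every control bin than in the bin below it, whereas the Isl1CKO cells reached their level by the 5% rule and did not go on. All control cells with Ttr at 5% or more, 113 in number, held 1925 CPM, and set against these the Ttr-high cells were 2.20 log2 units higher relative to the median gene, beside 3.63 against Gcg-high cells. Depth moved with the gene in both libraries: over 4 equal bins of total UMIs, lowest first, Gcg-high cells held 540, 542, 957 and 1238 CPM of Slc38a5, and Ttr went from 21441 CPM in the first bin to 37063 CPM in the last. The same bins of Ttr-high cells held 9413, 12464, 13236 and 12963 CPM of Slc38a5. The part of depth in the relation to Ttr was not tested. Cells just outside and inside the class rules were taken by the share of the rule's gene alone, whatever else they met. On this basis 44 control cells with Gcg at 5% to 10% held 509 CPM and 63 cells at 10% to 15% held 671 CPM. For the Ttr rule, 78 Isl1CKO cells at 3% to 5% held 7388 CPM and 207 at 5% to 7% held 10950 CPM. Ttr-high cells without a Gcg UMI (338) held 12991 CPM and those with one (955) 12102 CPM, at median depths of 27882 and 28985 UMIs.

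**Figure D3:**
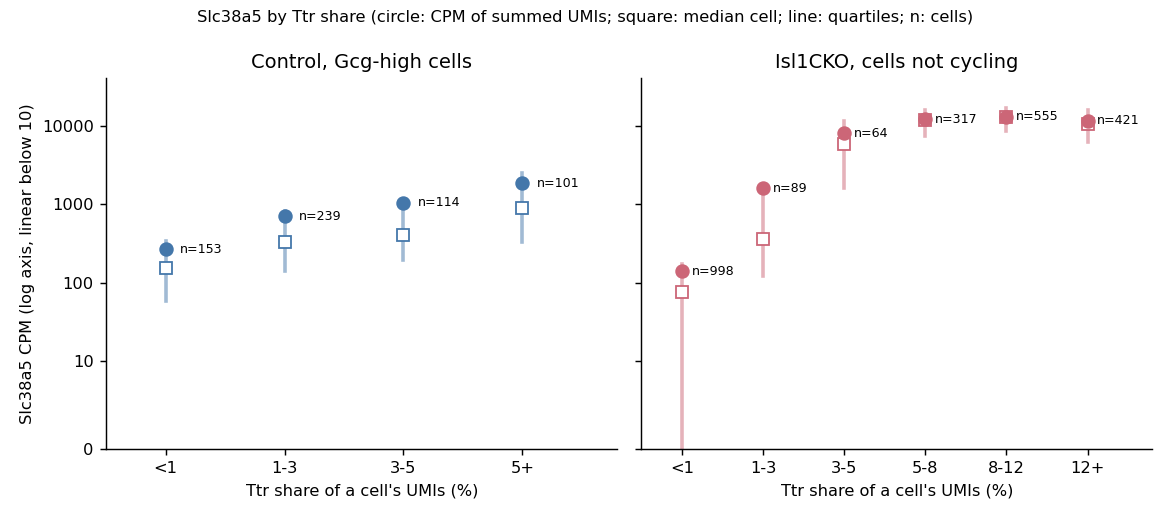
Slc38a5 in CPM (vertical log axis, linear below 10) by the share of Ttr in a cell's UMIs, in control Gcg-high cells (left) and Isl1CKO cells that were not cycling (right). Circles are summed levels, squares the median cell and lines the quartiles. The control climbs from 267 to 1848 CPM and the Isl1CKO cells level off near 12145 CPM. On the right, bins below 5% hold classes other than Ttr-high.

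Insulin-high cells had a second, smaller difference, and few cells held most of their Slc38a5 UMIs. The 890 control cells of this class held 13.5 CPM of Slc38a5 and the 377 Isl1CKO cells 177 CPM. Leaving out the 5% of cells with the highest Slc38a5 in each library, an alternative added after seeing the data, left 5.63 and 33.7 CPM. A difference thus remained without them. The 19 Isl1CKO cells left out held 82.1% of the class's Slc38a5 UMIs. No Slc38a5 UMI was found in 660 control and 111 Isl1CKO cells of the class, at median depths of 48319 and 38544 UMIs. Ttr stood at 937 CPM in control and 3663 CPM in Isl1CKO insulin-high cells, and its part in the difference was not tested. Just under the insulin rule, at 15% to 20% insulin, 44 Isl1CKO cells held 3109 CPM of Slc38a5, and just above it, at 20% to 25%, 21 cells held 1986 CPM. Both sets were taken by insulin share alone, so they may hold cells that also met the Ttr rule. In the empty control droplets, barcodes with 1 to 100 UMIs, Slc38a5 was 224 CPM (211 to 237), above the control insulin-high level. The Isl1CKO matrix was filtered before deposit, so the same barcodes are not analysed here.

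Slc38a5 is X-linked and the pools differed in their sex mix: cells with Xist and no Y-linked UMI were 18.1% of control and 32.7% of Isl1CKO cells. In Ttr-high cells Slc38a5 was 13484 CPM in 503 Xist cells and 11535 CPM in 717 cells with only Y-linked UMIs. In control Gcg-high cells the same groups held 1014 CPM (125 cells) and 868 CPM (424 cells). The level was thus higher in Xist cells of both classes, by much less than the gap between the libraries. Chgb-high cells had the same order, at 1057 CPM (103 Xist cells) against 218 CPM (511 cells), and Isl1CKO insulin-high cells the opposite one, at 89.7 against 238 CPM. Which animals the cells came from is not given, so sex and animal cannot be told apart.

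The system A genes parted from Slc38a5 and from each other. Slc38a4 was 106 CPM (101 to 112) in control Gcg-high cells, 114 CPM (111 to 118) in Ttr-high and 115 CPM (106 to 125) in cycling Ttr-high cells. In plain CPM these 3 classes held the gene's highest levels and overlapped within counting error. Elsewhere it ranged from 54.3 CPM in Fev-positive cells to 11.7 CPM in Ppy-high cells and 11.2 CPM (2 UMIs) in Isl1CKO mesenchymal-marker cells, with insulin-high cells at 40.8 CPM (control) and 35.3 CPM (Isl1CKO). Slc38a2 was instead highest in cells with mesenchymal markers, at 92.7 CPM (63.4 to 131) in the control and 61.4 CPM (30.7 to 110) in the Isl1CKO library. In endocrine classes Slc38a2 was 23.5 CPM in Gcg-high (309 UMIs) and 11.6 CPM in Ttr-high cells (443 UMIs). Insulin-high cells held 11.9 and 11.4 CPM of it in control and Isl1CKO, within counting error of each other in plain CPM. Hormones took 69.0% of control and 55.2% of Isl1CKO UMIs in this class. Across the alternatives the log2 ratio of Slc38a2 there was below 0, from -0.86 to -0.06.

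Slc7a2, the arginine transporter, had the opposite pattern to Slc38a5 between the alpha-marker classes. It was 350 CPM (340 to 360) in control Gcg-high cells, its highest level in any class, and 96.2 CPM (93.2 to 99.4) in Ttr-high cells. A Slc7a2 UMI was present in 97.9% of Gcg-high and 78.7% of Ttr-high cells. Within control Gcg-high cells it was 407 CPM where Ttr was under 1% and 282 CPM where it was 5% or more, so even the control cells richest in Ttr held more than the Ttr-high cells. It too moved with depth, from 509 CPM in the Gcg-high bin with the fewest UMIs to 265 CPM in that with the most, and from 135 to 74.2 CPM over the same bins of Ttr-high cells. In insulin-high cells the direction was the other way, with 49.8 CPM among control cells and 88.9 CPM among Isl1CKO cells. These are plain CPM, which the larger hormone share of the control cells lowers (69.0% against 55.2% of UMIs). The log2 ratio of Slc7a2 there was from 0.12 to 0.84 over the alternatives, under 2-fold in each. Sst-high cells held 14.2 CPM, within counting error of the 14.5 CPM of control mesenchymal-marker cells.

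The heavy chain and its 2 partners did not move as a unit. Slc3a2 was 125 CPM (119 to 131) in Gcg-high and 103 CPM (100 to 107) in Ttr-high cells, and stayed between 46.3 and 101 CPM in the other classes. Slc7a8 was 68.9 CPM (64.5 to 73.6) in Gcg-high cells, its highest class, and 35.1 CPM (33.2 to 37.0) in Ttr-high cells. In plain CPM Slc7a5 did not differ beyond counting error between them, at 14.2 CPM (12.2 to 16.4) and 13.6 CPM (12.4 to 14.8). Its log2 ratio there ranged from -0.60 to 0.10 over the alternatives. The highest plain CPM of Slc7a5 was in Chgb-high cells, at 36.8 CPM (33.5 to 40.3), which overlapped that of Fev-positive cells at 30.2 CPM (24.3 to 37.0). In Isl1CKO cells that were not cycling Slc7a5 was 34.8 CPM below 1% Ttr and 12.6 CPM from 12%. Slc1a5 was scarce everywhere, at 3.96 CPM (52 UMIs) in Gcg-high and 5.30 CPM (203 UMIs) in Ttr-high cells. Among endocrine classes it was lowest in insulin-high cells, with 21 UMIs (0.496 CPM) in the control and 8 UMIs (0.560 CPM) in the Isl1CKO library. The 38 control mesenchymal-marker cells had 0 UMIs of Slc1a5, which allows up to 8.69 CPM.

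To set these levels against the rest of the transcriptome, ratios were taken relative to the median gene among genes with at least 50 UMIs on the side with the higher CPM. The median gene itself lay 0.58 log2 units higher in the Isl1CKO library over all cells, 0.41 in insulin-high and 0.14 in Ttr-high against Gcg-high cells. Called higher or lower means at least 2-fold from it. Over all cells 1 of the 8 genes was called higher (5.21% of 14420 genes were) and 0 lower (6.82% were). That gene was Slc38a5, at 4.52 log2 units relative to the median gene. Slc1a5 followed at 0.95, Slc38a4 at 0.15 and Slc7a5 at -0.05, and the lowest were Slc38a2 at -0.88 and Slc7a2 at -0.81. Slc38a4, Slc7a5, Slc7a8 and Slc3a2 lay on either side of 0 over all cells depending on the scaling, so no direction is given for them. In insulin-high cells 1 of 7 was called higher (5.03% of 9989) and 0 lower (4.85%). Slc38a5 was at 3.31 there, but at 1.66 without the 5% of cells with most UMIs and at 5.79 with the control background subtracted. That subtraction took an assumed 5% of UMIs, with the profile of empty droplets, from the control only. It was therefore bound to raise this ratio and says nothing about its stability. Slc7a2 was at 0.43, Slc38a4 at -0.62 and Slc7a5 at 0.37, or -0.13 in cells with only Y-linked UMIs.

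Between Ttr-high and control Gcg-high cells 1 of the 8 was called higher (8.81% of 11757 genes) and 3 lower (8.97%). Nothing is read from these shares, since the genes were chosen with this contrast known. Slc38a5 was 3.63 log2 units higher relative to the median gene (3.61 to 3.66). The genes called lower were Slc7a2 at -2.01, Slc38a2 at -1.17 and Slc7a8 at -1.12. The other 4 were within 2-fold, Slc1a5 at 0.28, Slc38a4 at -0.04, Slc7a5 at -0.21 and Slc3a2 at -0.42. In plain CPM Slc7a8 was no longer past 2-fold, and Slc38a4 and Slc1a5 lay on either side of 0 depending on the scaling. Slc7a5 was at 0.10 with a minimum of 1 UMI and 0.08 against control cells with Ttr at 5% or more.

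**Figure D4:**
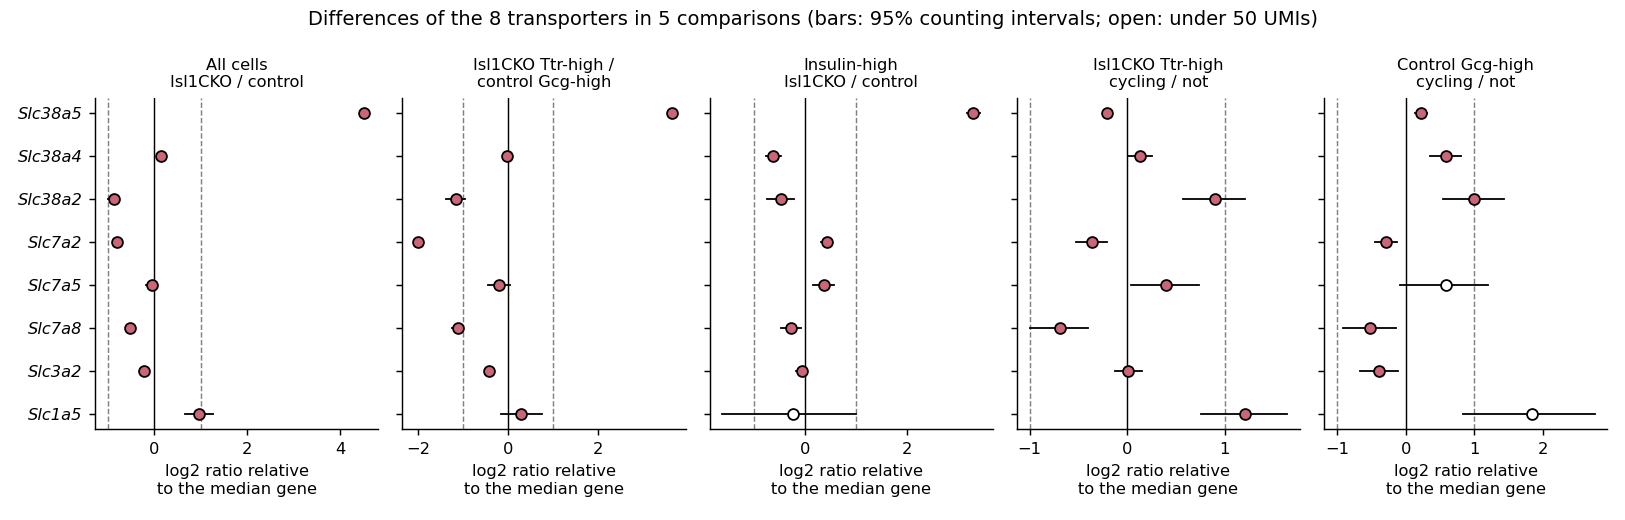
Log2 ratio relative to the median gene (horizontal axis) of the 8 transporters (rows) in 5 comparisons, with 95% counting intervals as bars, dashed lines at 2-fold and open circles for genes under 50 UMIs. Slc38a5 stands at 4.52, 3.63 and 3.31 in the comparisons between libraries and near 0 between cycling and other cells, where Slc1a5 is at 1.21.

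Cycling cells were compared with other cells of the same class inside each library, in the Isl1CKO Ttr-high class and, added after seeing the data, in control Gcg-high cells (53 cycling, 554 not). In Ttr-high cells 1 of the 8 was called higher (7.44% of 10629 genes) and 0 lower (3.45%). In Gcg-high cells 0 of the 6 genes with enough UMIs were called higher (8.26% of 7557) or lower (5.5%). Slc1a5 was the gene called, at 11.3 CPM in cycling and 5.30 CPM in other Ttr-high cells, 1.21 log2 units relative to the median gene (0.75 to 1.64). Its call was lost under 5 alternatives, in 4 of which it had under 50 UMIs. In control Gcg-high cells it was 9.80 against 3.25 CPM, on 14 and 38 UMIs, too few for a call. Slc38a2 stood next, at 0.90 in Ttr-high (19.8 against 11.6 CPM) and 1.00 in Gcg-high cells (37.1 against 21.9 CPM). Slc7a8 was lower in cycling cells of both, at -0.69 and -0.52, and Slc7a2 at -0.36 and -0.28. Slc38a5 hardly differed, at -0.20 in Ttr-high and 0.23 in Gcg-high cells, with a sign that depended on the scaling in the control and on depth in Ttr-high cells, where it was 0.02 after thinning. Cycling cells were also deeper, with median UMIs of 33692 against 28662 in Ttr-high and 26320 against 20216 in Gcg-high cells, and the part of depth was not tested.

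Of 45 further amino acid transporter genes, 18 had enough UMIs for the comparison of Ttr-high with Gcg-high cells. Of these, 1 was called higher (8.81% of all genes compared were) and 3 lower (8.97% were). Their median was -0.28 log2 units beside 0 for all genes. The list is mainly of plasma membrane proteins but holds a few lysosomal ones. Slc38a11, a little-studied relative of Slc38a5, was 1.68 CPM in Gcg-high and 5.85 CPM in Ttr-high cells, 1.66 log2 units relative to the median gene. Slc16a10, which carries aromatic amino acids, was 159 against 24.1 CPM, at -2.86. Slc7a14, a lysosomal relative of Slc7a2, was 90.4 against 49.0 CPM, at -1.03, and Slc38a9, the lysosomal arginine sensor, 4.04 against 2.09 CPM, at -1.09. No other amino acid transporter compared lay as far above the median gene as Slc38a5 did, as the scatter of the 2 classes shows. In insulin-high cells 1 of the 12 transporters compared was called higher, beside 5.03% of all genes compared. It was Slc6a19, a carrier of neutral amino acids, at 1.02 CPM (control) and 6.93 CPM (Isl1CKO), a log2 ratio of 2.36.

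**Figure D5:**
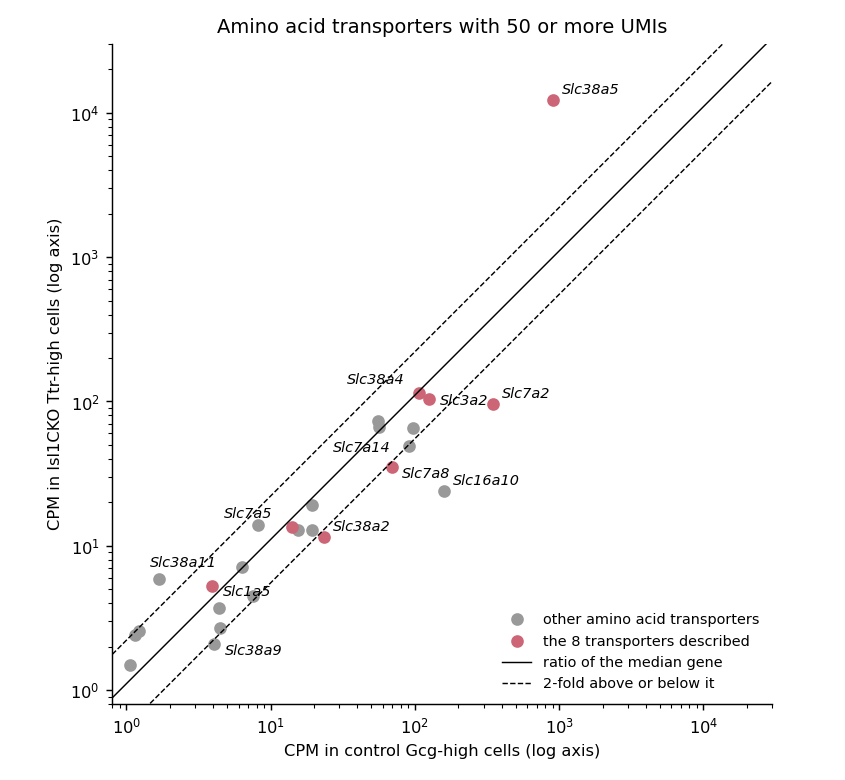
CPM in Isl1CKO Ttr-high cells (vertical log axis) against CPM in control Gcg-high cells (horizontal log axis) for the 8 transporters (red) and 18 others (grey) with at least 50 UMIs; lines mark the median gene and 2-fold from it. Slc38a5 lies at 899 and 12324 CPM, and Slc16a10 and Slc7a2 lie farthest below the lines.

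Genes that respond to amino acid shortage were mixed. Of 27 compared from a list of 30, 6 were called higher in Ttr-high than in Gcg-high cells and 1 lower, with a median of 0.18. Over all genes compared 8.81% were called higher and 8.97% lower. Nupr1, a stress-induced chromatin protein, was 0.838 against 11.0 CPM (3.58 log2 units), and Trib3, a pseudokinase induced by ATF4, 0.305 against 2.38 CPM (2.82, on 4 and 91 UMIs). Cebpb, a transcription factor, was 5.56 against 36.1 CPM (2.56), and Phgdh, the first enzyme of serine synthesis, 2.59 against 8.95 CPM (1.65). Psat1, the next enzyme of that route, went the other way, at 11.0 against 4.93 CPM (-1.30). The list split evenly between cycling and other Ttr-high cells. Of 27 genes compared there, 4 were called higher and 4 lower, with a median of -0.12. The shares over all genes compared were 7.44% and 3.45%. In cycling Ttr-high cells Psat1 was 2.14, Mthfd2 of mitochondrial folate metabolism 1.63, Phgdh 1.53 and the alanyl-tRNA synthetase gene Aars 1.04 log2 units higher than in other Ttr-high cells. Nupr1 (-2.87), Trib3 (-1.88) and Chac1 (-1.05), a glutathione-degrading enzyme, were among those lower there.

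The kinase complex mTORC1 couples amino acids to growth. Of 35 genes matched for its amino acid sensing, 1 was called higher in Ttr-high than in Gcg-high cells and 3 lower (median -0.11). The shares over all genes compared were 8.81% and 8.97%, which also stand beside the metabolism counts below. Eif4ebp1, a translation repressor that the kinase inactivates and that is also in the stress list, was 12.7 against 29.0 CPM (1.04). Rragb, a Rag GTPase that recruits the complex to lysosomes, was 54.4 against 14.6 CPM (-2.04), and Fnip2, a partner of folliculin, 20.8 against 9.32 CPM (-1.30). The third was Slc38a9, given above. Among 25 genes of glutamine and arginine metabolism, 2 were called higher and 2 lower (median 0.18). Arg1, which splits arginine, was 84.4 against 5.27 CPM (-4.14). Ass1, which makes the arginine precursor argininosuccinate, was 6.17 against 34.8 CPM (2.35), and Odc1, the first enzyme of polyamine synthesis, 13.5 against 39.6 CPM (1.41). In insulin-high cells 23 genes of this list were compared, with a median of -0.0035. Of these, 3 were called higher and 1 lower, beside 5.03% and 4.85% of all genes compared. Ass1 and Arg1, both among the genes called, kept these directions, at 1.77 and -3.06.

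The 5 genes whose levels were most like Slc38a5 over 11 classes of at least 50 cells, by Pearson's r of log2(CPM + 1) among 9847 genes, were Qsox1 (0.97), Kl (0.97), Cryba2 (0.97), Cav2 (0.97) and Cd2 (0.96). These classes share 2 libraries, so the values only describe the pattern. Cryba2, a crystallin gene, was 449 CPM in Gcg-high and 922 CPM in Ttr-high cells, and Kl, which encodes Klotho, 23.1 and 74.4 CPM. Cav2, a caveolin gene, was 10.7 and 43.2 CPM. None of the other 7 transporters was among these 5 genes. Of the 9847 ranked, Slc3a2 was at 757 (r 0.80), Slc38a4 at 853 (0.79) and Slc1a5 at 906 (0.79). Slc7a8 ranked 3850 (0.57), Slc7a2 3899 (0.57), Slc7a5 7540 (0.27) and Slc38a2 9153 (-0.08).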

How the data were processed

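For 2 libraries the authors deposited raw UMI counts per gene and barcode, whole numbers without normalization. Per the submitters' processing notes, the build was GRCm38.p6 and the tools were STAR 2.7.3a, STARsolo and Seurat 4.3.0.1, with no role stated for Seurat and no annotation release. Per the labels' protocols, tissue was dissociated with actinomycin D, which blocks transcription. Control barcodes with at least 6825 UMIs (the 99th percentile among the 3000 largest barcodes, divided by 10) were taken as cells, and all 3020 Isl1CKO barcodes, whose matrix was already filtered. No doublet caller was run. Cells meeting several of the Gcg, Sst or Ppy, insulin and mesenchymal rules (11 control) were kept apart. So were cells meeting several of the Ttr, insulin and mesenchymal rules (6 Isl1CKO).

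UMIs were summed per library and class and scaled to CPM with Python 3.11.15, numpy 2.4.6, scipy 1.17.1 and pandas 2.3.3. Each genotype is 1 library, so no test was run and no difference has a replicate check. Sums have exact Poisson, shares exact binomial (Clopper-Pearson) and ratios exact conditional binomial intervals at 95%, for counting error only. Shares of cells were thinned to 4000 UMIs by expectation. The comparison was tested on simulated data. Gene identifiers were matched to GENCODE M21 without version.

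The 8 genes and all lists were chosen with earlier results of these data known. Named genes were the 8, the listed transporters called in Ttr-high or insulin-high cells (at most 8 a direction), the 4 farthest a direction in each of 3 pathway lists and the 5 most like Slc38a5. Results for some withheld genes are not reported here. Castor1, Castor2 and Samtor were not matched by symbol. Alternatives varied scaling, cell filters, class rules, depth, sex of cells, background and minimum count.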

Additional observations from a re-analysis of the deposited data

Results flagged for a closer look

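All 8 transporters were also present in control barcodes with 1 to 100 UMIs, which lie outside every comparison and hold 5204530 UMIs in all. Their levels there lay above the limit that a count of 0 allows, which is 0.576 CPM for 3 UMIs. Slc38a5 was 224 CPM there, Slc3a2 59.2, Slc7a2 47.7 and Slc38a4 23.4 CPM. Slc7a8 was 15.4, Slc7a5 7.30 and Slc38a2 7.11 CPM. Slc1a5 was 0.961 CPM on 5 UMIs. Gcg was 47399 CPM and Ttr 7003 CPM in the same barcodes.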

How the results depend on the processing

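Each count of transporters called was recomputed under 13 to 18 alternatives. The share of all genes called the same way under the alternative stands in brackets. Slc38a5 stayed called higher over all cells, in insulin-high and in Ttr-high cells under every one run. Its log2 ratio ranged from 3.69 to 5.10, from 1.66 to 5.79 and from 2.20 to 3.93 in these. The 5.79 came from subtracting background from the control side only. Over all cells 2 were higher in plain CPM (16.9%), with a minimum of 1 UMI (12.0%) or at 1.5-fold (11.2%), Slc1a5 being added. There 2 were lower outside hormones (11.3%) or at 1.5-fold (12.7%), Slc38a2 and Slc7a2, and 1 without several-hormone cells (4.49%), Slc7a2. Plain CPM gave 3.52% of genes lower over all cells, and 11.0% higher and 2.56% lower in insulin-high cells. Outside hormones 5.3% were higher and 19.3% lower in Ttr-high cells. In insulin-high cells 1 was lower at 1.5-fold (10.8%), Slc38a4, and in Ttr-high cells 1 with a minimum of 1 UMI (24.3%), Slc7a2. In cycling Ttr-high cells 2 were higher at 1.5-fold (13.7%) or without the 5% deepest cells (7.34%), Slc38a2 being added. None (0) was without several-hormone cells (7.1%), in Y-only cells (7.38%), thinned to 4000 UMIs (4.73%), under stricter rules (7.73%) or with a minimum of 1 UMI (30.5%), and Slc1a5 had under 50 UMIs in the first 4 of these. There 1 was lower with a minimum of 1 UMI (7.08%), at 1.5-fold (10.1%) or under stricter rules (4.24%), Slc7a8. In cycling Gcg-high cells 1 was higher without several-hormone cells (8.25%), under looser rules (8.13%) or with 10 cycling UMIs (8.71%), Slc38a2, and 1 with a minimum of 1 UMI (32.3%), Slc1a5. At 1.5-fold 2 were higher (14.8%), and 1 was lower with a minimum of 1 UMI (11.7%), Slc7a8. Slc38a5 in Ttr-high cells was 12437 CPM outside hormones, 12106 thinned, 12378 under stricter and 12221 under looser rules. The causes were not tested. No paired analysis was possible because each genotype is 1 pooled library.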

Other observations

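Of 10 genes for receptors of glucagon and amino acids, 3 had enough UMIs to compare Ttr-high with control Gcg-high cells. All 3 were called lower, beside 8.97% of all genes compared. They are named after their values were seen. Casr, the calcium-sensing receptor that amino acids modulate, was 9.75 CPM in Gcg-high and 3.42 CPM in Ttr-high cells, -1.66 log2 units relative to the median gene. The glutamate receptor subunits Gria2 (261 against 63.1 CPM, -2.19) and Gria3 (35.3 against 9.94 CPM, -1.97) were lower by more. In insulin-high cells Gria3 lay the other way, at 6.22 CPM (control) and 35.9 CPM (Isl1CKO), or 2.12 log2 units.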
